A study of Mus musculus with 6 samples.

Results

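The chemokine ligand genes of the sorted hair follicle stem cells (HFSCs) were taken as every row of the count table whose symbol begins with Ccl, Cxcl, Cx3cl or Xcl and continues with the number of a family member. There were 38 such genes among the 56941 genes of the table. Chemokines are small secreted proteins that bind G protein-coupled receptors on leukocytes, endothelium and epithelium and direct where these cells move. Most are grouped by the spacing of their first conserved cysteines into CC and CXC ligands, with XC and CX3C ligands as small further groups. In skin, inflammatory CC ligands recruit monocytes, eosinophils and lymphocytes, CXC ligands with a Glu-Leu-Arg motif recruit neutrophils, and several ligands are made constitutively by keratinocytes, fibroblasts or lymphatic vessels.

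Total RNA was sequenced from HFSCs of dorsal skin of female mice at postnatal day (PD) 68, in 3 replicates labelled WT and another 3 labelled Dab2-cKO. The WT mice were K14CreER-/- Dab2 fl/fl and the Dab2-cKO mice K14CreER+/- Dab2 fl/fl, so both genotypes carried the floxed Dab2 alleles, given with the strain B6;129S4-Dab2tm1Cpr/J, and both received tamoxifen at 75 mg/kg for 5 days. K14CreER is a tamoxifen-activated Cre recombinase under the Keratin 14 promoter, which is active in basal keratinocytes and their follicular relatives and leaves the gene intact in fibroblasts, endothelium and leukocytes. The cells were sorted as CD34+/α6-integrin+. Total counts per library lay between 7040032 and 11696457. The share of mitochondrially encoded genes was 13.0% to 14.4% in the libraries labelled WT and 19.1% to 20.3% in the others, and the TMM factors were 1.11 to 1.21 and 0.847 to 0.876, so both differed between the groups without overlap. When the top 100 genes and those of the mitochondrion were kept out of the TMM factors, the same 15 chemokine ligand genes were called.

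The labels were checked first. Dab2, the targeted gene, had 338, 332 and 309 normalized counts in the WT-labelled libraries and 1434, 1300.2 and 1389.5 in the Dab2-cKO-labelled ones. A normalized count is the count scaled to a common effective library size, which is the mean over the 6 libraries. Dab2 was thus higher in the libraries labelled Dab2-cKO (log2 fold change 2.08, SE 0.08, edgeR adjusted p = 3.04e-34), which goes against the label, and a count over all exons does not show the floxed part alone. Every direction below is that of the libraries labelled Dab2-cKO relative to the libraries labelled WT. All 11 markers of the HFSC bulge and basal keratinocytes were detected in both groups, of which 8 were higher and Lhx2, Lgr5 and Sox9 were lower. Over all genes tested, 16.8% were higher and 11.5% lower at an edgeR adjusted p under 0.05. Markers of other cells were also present in every library. The 7 fibroblast markers summed to 101747 to 123025 normalized counts in the WT-labelled libraries and 354786 to 374405 in the Dab2-cKO-labelled ones, the 14 markers of macrophages and Langerhans cells to 2787 to 3073 and 13656 to 14153, the 7 endothelial markers to 1514 to 1746 and 5305 to 5420, and the 8 of hair shaft and inner root sheath to 221584 to 267072 and 2176 to 2252. None of the markers in these lists was at 0 in either group. In bulk RNA, more cells of one type and more RNA per cell cannot be told apart.

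The sequence before the transcription start is shown for the members with the largest rises, for Cxcl12 and Ccl21a as the abundant members, for Cxcl14 as the member that fell, and for Cxcl1, Cxcl2 and Cxcl3 as members with an NF-kappaB consensus. RefSeq promoter windows on GRCm38.p6 were matched for 27 of the 38 members, and 250 bases before each start were searched on both strands for the NF-kappaB consensus, for TATAAA, for the interferon response element core GAAANNGAA and for the AP-1 site TGANTCA, with overlapping matches of a motif counted as 1. The last 100 bases before the start are printed 5′ to 3′ on the strand of the gene, with the NF-kappaB consensus and TATAAA, on either strand, in capitals.
Ccl8 (chr11:82115085-82115184, plus strand): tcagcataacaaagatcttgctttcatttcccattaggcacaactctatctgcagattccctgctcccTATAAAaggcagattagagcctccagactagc
Ccl12 (chr11:82101745-82101844, plus strand): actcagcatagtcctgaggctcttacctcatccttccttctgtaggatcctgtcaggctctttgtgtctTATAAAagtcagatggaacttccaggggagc
Ccl9 (chr11:83578637-83578736, minus strand): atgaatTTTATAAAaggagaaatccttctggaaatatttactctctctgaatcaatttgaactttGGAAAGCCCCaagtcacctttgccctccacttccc
Ccl6 (chr11:83593088-83593187, minus strand): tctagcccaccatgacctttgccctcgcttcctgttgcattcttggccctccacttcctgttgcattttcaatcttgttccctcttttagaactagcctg
Ccl21a (chr4:42773992-42774091, minus strand): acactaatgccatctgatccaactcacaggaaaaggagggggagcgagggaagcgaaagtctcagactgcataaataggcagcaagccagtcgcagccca
Cxcl12 (chr6:117168435-117168534, plus strand): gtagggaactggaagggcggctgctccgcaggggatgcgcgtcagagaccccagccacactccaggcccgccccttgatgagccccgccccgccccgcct
Cxcl14 (chr13:56296552-56296651, minus strand): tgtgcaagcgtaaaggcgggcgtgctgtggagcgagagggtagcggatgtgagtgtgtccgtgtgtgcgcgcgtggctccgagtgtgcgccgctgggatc
Cxcl1 (chr5:90891145-90891244, plus strand): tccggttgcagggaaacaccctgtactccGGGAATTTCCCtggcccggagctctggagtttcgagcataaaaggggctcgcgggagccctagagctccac
Cxcl2 (chr5:90903799-90903898, plus strand): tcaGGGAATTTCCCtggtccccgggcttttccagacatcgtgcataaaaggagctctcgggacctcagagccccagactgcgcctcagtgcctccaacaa
Cxcl3 (chr5:90786001-90786100, plus strand): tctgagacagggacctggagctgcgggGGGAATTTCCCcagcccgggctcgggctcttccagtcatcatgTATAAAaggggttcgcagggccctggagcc

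Ccl8 and Ccl12 each held TATAAA, beginning 32 and 31 bases before the start, with no NF-kappaB consensus. Ccl9 held an NF-kappaB consensus beginning 35 bases before the start. In Cxcl1, Cxcl2 and Cxcl3 the consensus began 71, 97 and 73 bases before the start, and neither Cxcl1 nor Cxcl3 was called while Cxcl2 was too low to test. The stretches printed for Ccl6, Ccl21a, Cxcl12 and Cxcl14 held neither motif. Over the 250 bases, an NF-kappaB consensus was found in 6 of the 27 members and in 3.9% of 32851 promoter windows, TATAAA in 10 and 12.4%, GAAANNGAA in 6 and 7.13%, and TGANTCA in 4 and 6.75%. A member was counted if any of its windows held the motif, and Ccl25, Ccl27a and Ccl27b had more than 1 window, so members and windows are not quite alike. A match is a string of letters and not a measured binding site. Ccl2, Ccl4, Ccl5, Ccl7, Ccl11, Ccl24, Ccl26, Cxcl5, Cxcl11, Cxcl16 and Cxcl17 had no window in the table used.

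Of the 38 members, 31 passed the filter on low counts and were tested, and 7 were not. By edgeR's quasi-likelihood test with Benjamini-Hochberg adjustment over all 32149 genes tested, 14 members were higher, 1 was lower and 16 were not called. Among all genes tested, 16.8% were called higher and 11.5% lower. With upper-quartile scaling in place of the TMM factors, 13 members were higher and 2 lower, beside 13.3% and 17.3% of all genes. With library size only, 12 members were higher and 5 lower, beside 8.35% and 34.7% of all genes. A rise of more than 4-fold that passed the test was found in 6 members, Ccl8, Ccl12, Ccl11, Ccl21a, Ccl6 and Ccl9, against 1.14% of all genes. Every library labelled Dab2-cKO lay above every library labelled WT for 15 of the 31 members, against 20.6% of all genes, and below for 3 members, against 17.7%. The median log2 fold change over the tested members was 0.42, and over all genes tested it was -0.02. A gene that passes the filter only through the group where it is high has to differ, so these counts describe the members tested and not all 38.

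**Figure D1:**
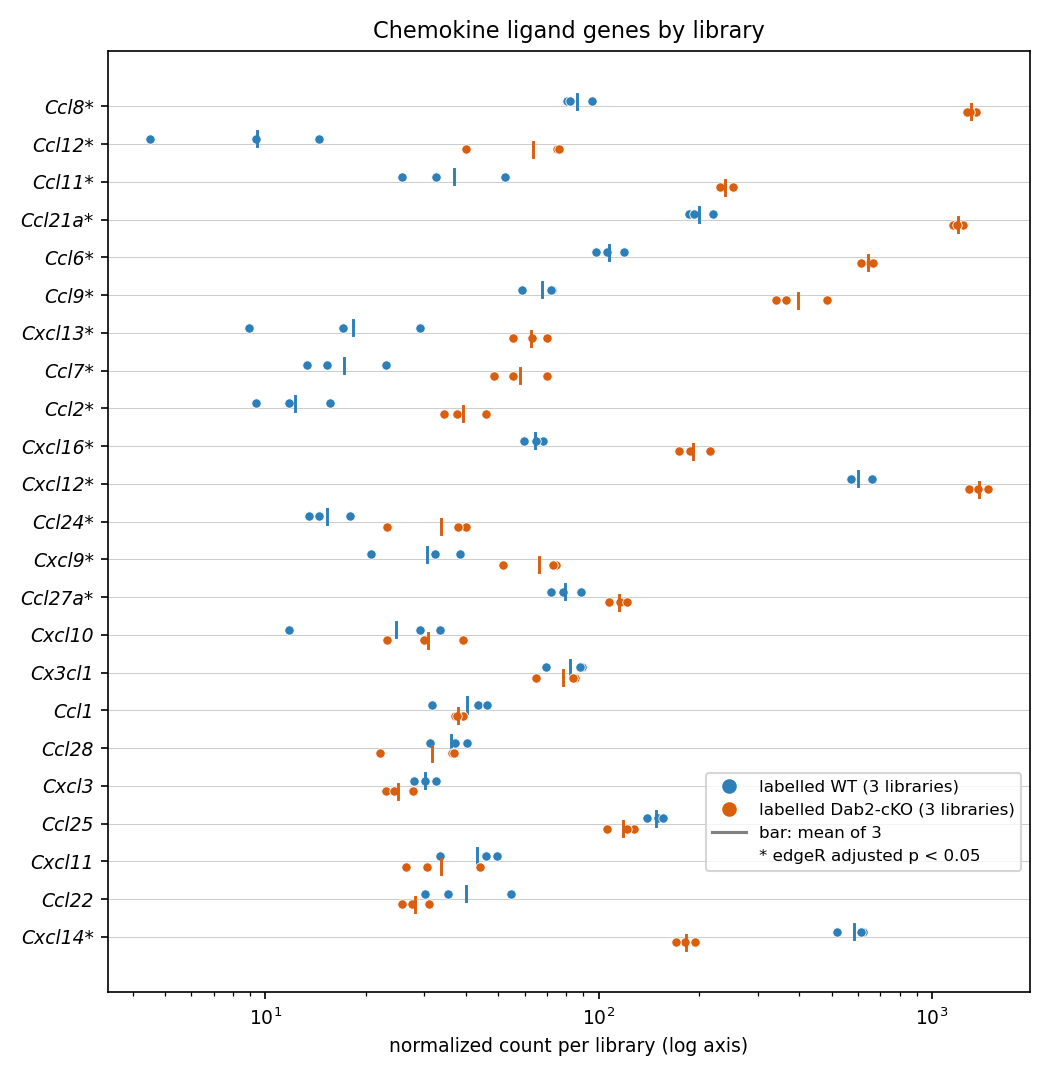
Normalized counts of the 23 chemokine ligand genes that were called or had a mean of at least 20, on a log axis, with 1 point per library, blue for the 3 libraries labelled WT and orange for the 3 labelled Dab2-cKO, and a bar at each mean. Ccl8 rose from between 80.2 and 95.7 to between 1278 and 1355, and Cxcl14 alone among the called members shifted to lower values.

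The 38 genes together had 2427 to 2587 normalized counts in the WT-labelled libraries and 6464 to 6607 in the Dab2-cKO-labelled ones, which was 0.0303% to 0.0314% and 0.0590% to 0.0599% of all counts in a library. The makeup of this sum differed between the groups. Ccl8 held 3.21% to 3.70% of it in the WT-labelled libraries and 19.8% to 20.5% in the Dab2-cKO-labelled ones, while Cxcl14 held 21.3% to 24.1% and 2.65% to 3.01%. Without Ccl8 the sum was 2347 to 2492 in the WT-labelled libraries and 5161 to 5251 in the Dab2-cKO-labelled ones.

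The inflammatory CC ligands, which act mainly on monocytes, eosinophils and effector lymphocytes, gave most of the calls, with 8 of 11 tested members higher and none lower. The shares over all genes tested were 16.8% higher and 11.5% lower. Ccl8, a monocyte and T cell attractant, had 80.2, 95.7 and 82.0 normalized counts in the WT-labelled libraries and 1355, 1305 and 1278 in the Dab2-cKO-labelled ones. The groups did not overlap, and the change was the largest of any member, with a log2 fold change of 3.93 (SE 0.10, 95% confidence interval 3.74 to 4.12, edgeR adjusted p = 7.29e-46). Ccl8 (ENSMUSG00000009185) lies on chromosome 11 at 82006007 to 82007625 on the plus strand of GRCm39.

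Ccl6 and Ccl9, related ligands of Ccr1 that are made by myeloid cells in rodents, moved by almost the same amount. Ccl6 had 98.0, 119 and 106 normalized counts in the WT-labelled libraries and 650.4, 666 and 613 in the Dab2-cKO-labelled ones (log2 fold change 2.57, SE 0.11, edgeR adjusted p = 4.67e-32). Ccl9 had 72.4, 58.7 and 71.8 against 485, 365 and 339.9 (log2 fold change 2.56, SE 0.14, edgeR adjusted p = 4.34e-26). Both genes were clear of overlap, and Ccl9 was the more variable of the pair among the libraries labelled Dab2-cKO, with an SD of 77.8 around a mean of 397 (n = 3) against 27.6 around 643 for Ccl6 (n = 3).

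Ccl11 and Ccl24 are eotaxins, ligands of Ccr3 that draw eosinophils. Ccl11 had 52.3, 32.5 and 25.6 normalized counts in the WT-labelled libraries and 254, 235 and 232 in the Dab2-cKO-labelled ones (log2 fold change 2.74, SE 0.18, edgeR adjusted p = 4.31e-22). Ccl24 had 14.5, 13.5 and 17.9 against 40.1, 38.0 and 23.2 (log2 fold change 1.13, SE 0.36, edgeR adjusted p = 0.0109). Replicate 3 labelled Dab2-cKO was the lowest of its group for Ccl24. The call for Ccl24 was lost without replicate 1 labelled Dab2-cKO (edgeR adjusted p = 0.0889), without replicate 2 (edgeR adjusted p = 0.0582) and with library size only (edgeR adjusted p = 0.115).

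Ccl2, Ccl7 and Ccl12 are the ligands of Ccr2, the receptor by which monocytes leave the blood. Ccl12 had 14.5, 4.51 and 9.40 normalized counts in the WT-labelled libraries and 40.1, 74.8 and 76.2 in the Dab2-cKO-labelled ones (log2 fold change 2.76, SE 0.35, edgeR adjusted p = 4.21e-10). Ccl7 had 13.4, 15.3 and 23.1 against 48.6, 70.2 and 55.2 (log2 fold change 1.72, SE 0.30, edgeR adjusted p = 2.10e-06). Ccl2 had 15.6, 11.7 and 9.40 against 34.3, 46.0 and 37.5 (log2 fold change 1.69, SE 0.36, edgeR adjusted p = 1.03e-04). None of the 3 genes had overlapping groups, but all 3 were sparse in the libraries labelled WT, where Ccl2 and Ccl12 were at the background level described below. The other inflammatory CC ligands tested, Ccl1, Ccl4 and Ccl5, were not called. Ccl1, a ligand of Ccr8, had 43.4, 31.6 and 46.1 normalized counts against 37.2, 39.1 and 37.5 (log2 fold change -0.09, 95% confidence interval -0.63 to 0.45).

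The macrophage and Langerhans cell markers moved with these ligands, with 14 of 14 markers higher and log2 fold changes from 1.24 (Cd207) to 3.02 (C1qb). Beside the marker counts given here, 16.8% of all genes tested were higher and 11.5% lower. The fibroblast markers were 7 of 7 higher, from 1.51 to 2.19. Among the neutrophil and mast cell markers 4 of 7 were higher, the mast cell genes Cpa3, Mcpt4 and Tpsb2 and the receptor gene Csf3r, and the list summed to 291 to 316 normalized counts in the WT-labelled libraries and 922 to 1010.3 in the Dab2-cKO-labelled ones. Of the 9 T cell and NK cell markers only Cd3g was called, higher, and that list summed to 377 to 396 and 483 to 568. The part of any of these cells in the ligand values was not tested.

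**Figure D2:**
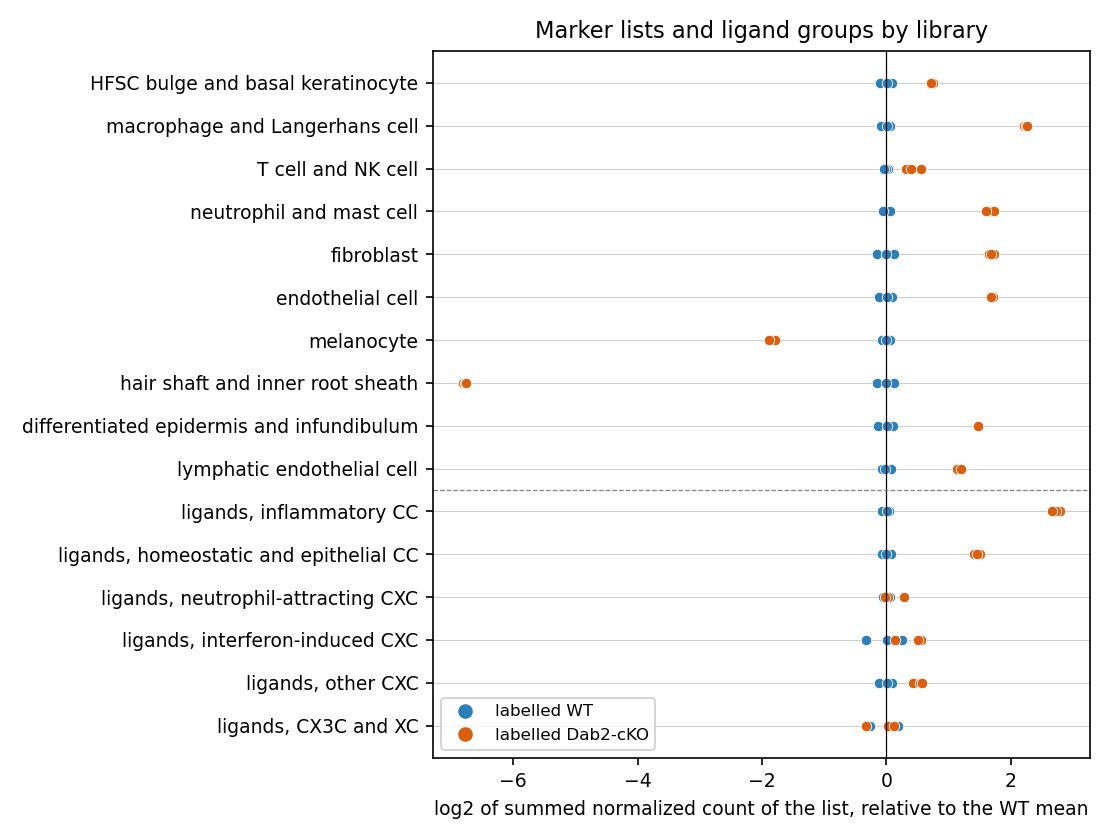
Log2 of the summed normalized count of each cell type marker list (above the dashed line) and of each chemokine ligand group (below it), relative to the mean of the libraries labelled WT, with 1 point per library. The inflammatory CC ligands went from sums of 413 to 446 to sums of 2728 to 2990. All marker lists went in the same direction except the hair shaft and melanocyte lists, which went the other way. The differentiated epidermis and infundibulum list went from sums of 23946 to 28155 to sums of 72494 to 72732.

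Apart from Ccl24 and Ccl26 on chromosome 5, the inflammatory CC genes lie in tandem in a pair of stretches on chromosome 11 of GRCm39. In the first, from 81926397 to 82196516, the order is Ccl2, Ccl7, Ccl11, Ccl12, Ccl8 and Ccl1, and the first 5 rose while Ccl1 at the far end was not called. The log2 fold changes along this stretch were 1.69, 1.72, 2.74, 2.76, 3.93 and -0.09. In the second, from 83416602 to 83555509, the order is Ccl5, Ccl9, Ccl6, Ccl3 and Ccl4, where the inner Ccl9 and Ccl6 rose, Ccl5 and Ccl4 were not called and Ccl3 was not tested. Ccl5 had 31.2, 9.03 and 22.2 normalized counts against 15.3, 4.60 and 21.0, and its groups overlapped (log2 fold change -0.58, 95% confidence interval -1.49 to 0.33).

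**Figure D3:**
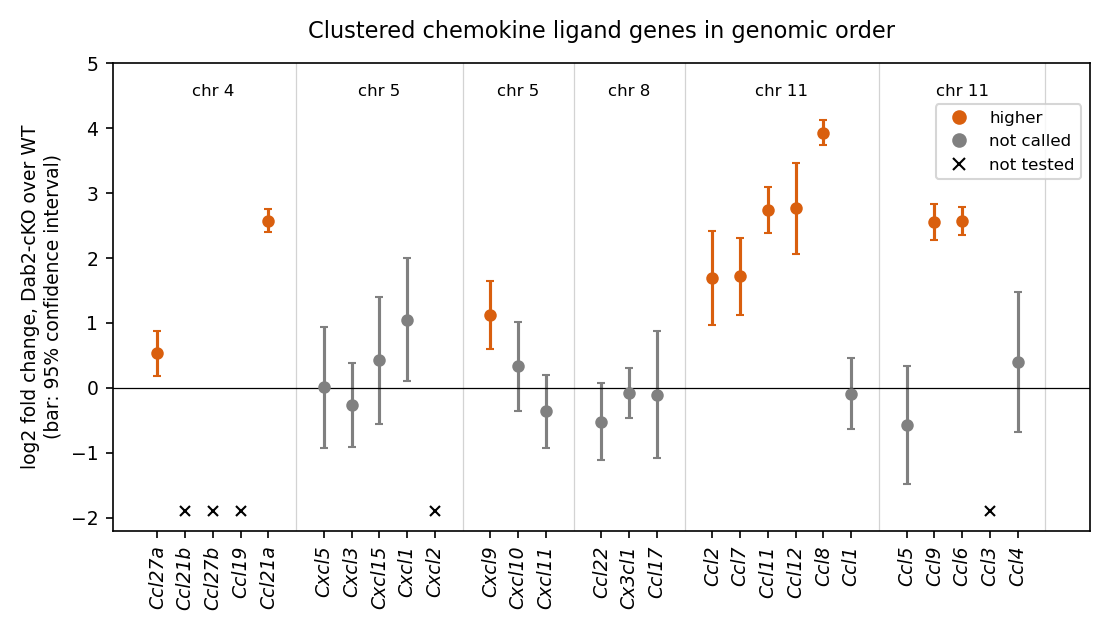
Log2 fold change of the libraries labelled Dab2-cKO over those labelled WT, with 95% confidence intervals, for chemokine ligand genes in groups of 3 or more with gaps of at most 500000 bases, in genomic order within each group and with equal spacing. Orange marks genes called higher, grey genes not called, and crosses at the bottom genes not tested. The rises fill the first chromosome 11 group up to Ccl8 and stop at Ccl1, and none falls in the chromosome 5 group of Cxcl1 and its neighbours.

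Among the homeostatic and epithelial CC ligands, 2 of 7 tested members were higher and none lower, beside 16.8% and 11.5% of all genes tested. Ccl21a, which guides Ccr7-bearing dendritic cells and lymphocytes along lymphatic vessels, had 187, 220.3 and 193 normalized counts in the WT-labelled libraries and 1239, 1156 and 1191 in the Dab2-cKO-labelled ones. The groups were far apart, and the log2 fold change was 2.58 (SE 0.09, edgeR adjusted p = 9.20e-38). Ccl21a (ENSMUSG00000094686) lies on chromosome 4 at 42772859 to 42773995 on the minus strand of GRCm39, and Ccl21b, whose transcript is 97.5% identical to it, had no count in any library, which allows up to 4.26e-05% of the shallowest library for counting error only. The treatment of reads with several positions was not given in the sources used here, so the division of reads between these copies is uncertain. The 5 lymphatic endothelial markers Prox1, Lyve1, Flt4, Reln and Mmrn1, a list chosen after the values of Ccl21a were seen, were all higher, with log2 fold changes from 0.70 to 1.99, and their part in the rise of Ccl21a was not tested.

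Ccl27a, a keratinocyte ligand of Ccr10 that draws skin-homing T cells, had 77.9, 88.5 and 71.8 normalized counts in the WT-labelled libraries and 108, 116 and 121 in the Dab2-cKO-labelled ones. No library of one group reached the other, and the log2 fold change was 0.53 (SE 0.17, edgeR adjusted p = 0.0130). This call was lost without replicate 3 labelled WT (edgeR adjusted p = 0.0793), without replicate 3 labelled Dab2-cKO (edgeR adjusted p = 0.0690), under upper-quartile scaling (edgeR adjusted p = 0.0822), under scaling by library size only (edgeR adjusted p = 0.639) and with DESeq2 (adjusted p = 0.0556). Its copies such as Ccl27b are 99.3% identical, and 26.4% of its exon bases overlap genes on the other strand, Il11ra1 among them.

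The other homeostatic and epithelial CC ligands with a mean of at least 20 normalized counts were not called. Ccl25, a ligand of Ccr9 known from thymus and gut, had 139, 151 and 156 against 128, 106 and 121 (log2 fold change -0.33, SE 0.15, edgeR adjusted p = 0.0992). Its groups did not overlap, and it was called lower when scaled by upper quartiles or by library size only, or when genes under a mean count of 50 were left out. Ccl22, a dendritic cell and macrophage ligand of Ccr4, had 30.1, 35.2 and 54.7 against 25.7, 27.6 and 30.9 (log2 fold change -0.52, 95% confidence interval -1.12 to 0.07). Ccl28, an epithelial ligand of Ccr10 and Ccr3, had 31.2, 37.0 and 40.2 against 36.2, 36.8 and 22.1 (log2 fold change -0.19, 95% confidence interval -0.78 to 0.40). Ccl25, spread over long exons, and Ccl28 were at the background level described below in both groups. Ccl22 was at that level in the libraries labelled Dab2-cKO.

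None of the 4 tested CXC ligands that attract neutrophils was called in either direction, beside 16.8% higher and 11.5% lower of all genes tested. Cxcl3 had 30.1, 28.0 and 32.5 normalized counts in the WT-labelled libraries and 27.7, 23.0 and 24.3 in the Dab2-cKO-labelled ones (log2 fold change -0.27, SE 0.32, edgeR adjusted p = 0.630). Cxcl1, singled out after its values were seen, had 11.1, 5.42 and 11.1 against 19.1, 21.9 and 16.6. Its groups did not overlap, but its log2 fold change of 1.05 (95% confidence interval 0.10 to 2.00) did not pass the test (edgeR adjusted p = 0.0945). The whole group, Cxcl2 included, summed to 72.2 to 77.9 normalized counts in the WT-labelled libraries and 73.9 to 91.5 in the Dab2-cKO-labelled ones, and none of its 5 genes stood above the background level in either group.

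Of the CXC ligands induced by interferon, which bind Cxcr3 on activated T cells and NK cells, Cxcl9 was higher and Cxcl10 and Cxcl11 were not called. Cxcl9 had 32.3, 20.8 and 38.4 normalized counts in the WT-labelled libraries and 74.4, 51.8 and 72.8 in the Dab2-cKO-labelled ones (log2 fold change 1.12, SE 0.26, edgeR adjusted p = 3.19e-04). Cxcl10 had 33.4, 11.7 and 29.1 against 39.1, 29.9 and 23.2, with overlap (log2 fold change 0.33, 95% confidence interval -0.35 to 1.02), and its sign turned with library size only. Cxcl11 had 33.4, 46.0 and 49.6 against 30.5, 26.5 and 44.1, with overlap (log2 fold change -0.36, 95% confidence interval -0.92 to 0.19), and 41.7% of its exon bases lie opposite another gene. A list of 15 genes stimulated by interferon was higher throughout, beside 16.8% of all genes tested. Their log2 fold changes ran from 1.69 (Irf1) to 5.14 (Ifit1), with a median of 2.74. The value of each of these 15 genes exceeded the upper end of the interval for Cxcl10 and for Cxcl11. However, Cxcl10 was at the background level described below in the libraries labelled WT, and Cxcl11 in both groups, so their own changes may be understated. A part of interferon in the values of these ligands was not tested.

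The other CXC ligands gave 3 genes higher and 1 lower of 5 tested, beside 16.8% and 11.5% of all genes tested. Cxcl12 and Cxcl14 moved in opposite directions. Cxcl12, the ligand of Cxcr4 and Ackr3 and a product of fibroblasts and endothelium, had 573, 659 and 571 normalized counts in the WT-labelled libraries and 1294, 1376 and 1471 in the Dab2-cKO-labelled ones. No library of one group reached the other, and the log2 fold change was 1.20 (SE 0.08, edgeR adjusted p = 2.93e-22). Cxcl14, a ligand made constitutively by epithelia, had 518, 619 and 614 against 182, 194 and 171. It was the only member called lower, with a log2 fold change of -1.68 (SE 0.10, 95% confidence interval -1.89 to -1.47, edgeR adjusted p = 3.25e-23). Cxcl14 (ENSMUSG00000021508) lies on chromosome 13 at 56436352 to 56444603 on the minus strand of GRCm39. The hair shaft and inner root sheath markers fell with it in 8 of 8 genes, with log2 fold changes from -7.30 to -6.37, as did the 5 melanocyte markers. Other epithelial lists mostly went the other way. Of the differentiated epidermis and infundibulum markers 6 of 8 were higher and 2 lower, and of the bulge and basal keratinocyte markers 8 of 11 were higher and 3 lower. The part of all these cells in the change of Cxcl14 was not tested.

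Cxcl13, which draws B cells through Cxcr5, had 8.91, 17.2 and 29.1 normalized counts in the WT-labelled libraries and 55.3, 70.2 and 62.9 in the Dab2-cKO-labelled ones (log2 fold change 1.72, SE 0.30, edgeR adjusted p = 1.72e-06). Cxcl16, a membrane-bound ligand of Cxcr6 and scavenger receptor for oxidized lipoprotein, had 67.9, 65.0 and 59.8 against 188, 215 and 174 (log2 fold change 1.58, SE 0.16, edgeR adjusted p = 1.70e-13). Of the exon bases of Cxcl16, 84.8% lie opposite exons of Med11 and Zmynd15, and the strand setting of the count was not given in the sources used here. Med11 and Zmynd15 themselves were not called, with log2 fold changes of 0.36 and 0.33. Cx3cl1, the membrane-bound ligand of Cx3cr1, had 89.1, 69.5 and 88.0 against 64.8, 85.1 and 83.9 and overlapped (log2 fold change -0.08, 95% confidence interval -0.47 to 0.31).

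The remaining 8 tested members had means of 10.5 to 18.0 normalized counts and were not called. They were Ccl5, Ccl20, Ccl17, Cxcl5, Cxcl17, Ccl4, Cxcl15 and Cxcl1. Over all 16 members not called, the log2 fold changes ran from -0.58 to 1.05 with SEs from 0.15 to 0.54 and edgeR adjusted p from 0.0945 to 0.994. For the sparsest of them the intervals were wide, from -0.68 to 1.48 for Ccl4 and from -0.65 to 1.41 for Cxcl17. The 7 members not tested, Xcl1, Ccl3, Ccl19, Ccl21b, Ccl26, Ccl27b and Cxcl2, had at most 17 counts in any library.

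Levels were set against 1526 genes of olfactory, vomeronasal and trace amine receptors, taken as an approximate background level. Their median was 4.94 normalized counts per kb of exon and their 95th percentile 12.4 in the libraries labelled WT, and 4.83 and 11.8 in the Dab2-cKO-labelled ones. Of the 38 members, 20 exceeded that percentile in the WT-labelled libraries and 24 in the Dab2-cKO-labelled ones. All 14 members called higher exceeded it in the libraries labelled Dab2-cKO, and 10 did in those labelled WT, the exceptions being Ccl2, Ccl12, Ccl24 and Cxcl9. Of the 16 members tested and not called, 7 exceeded it in each group. A fold change against a level within this background can understate the change of the gene itself.

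The order of levels per kb of exon shifted between the groups. In the libraries labelled WT, Ccl21a was the highest with 206 normalized counts per kb, followed by Cxcl14 with 170.4, Ccl8 with 167 and Cxcl12 with 72.0. In those labelled Dab2-cKO, Ccl8 led with 2549 per kb, followed by Ccl21a with 1229.8, Ccl6 with 354, Ccl11 with 216 and Cxcl12 with 165, and Cxcl14 came at rank 10 with 53.3.

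**Figure D4:**
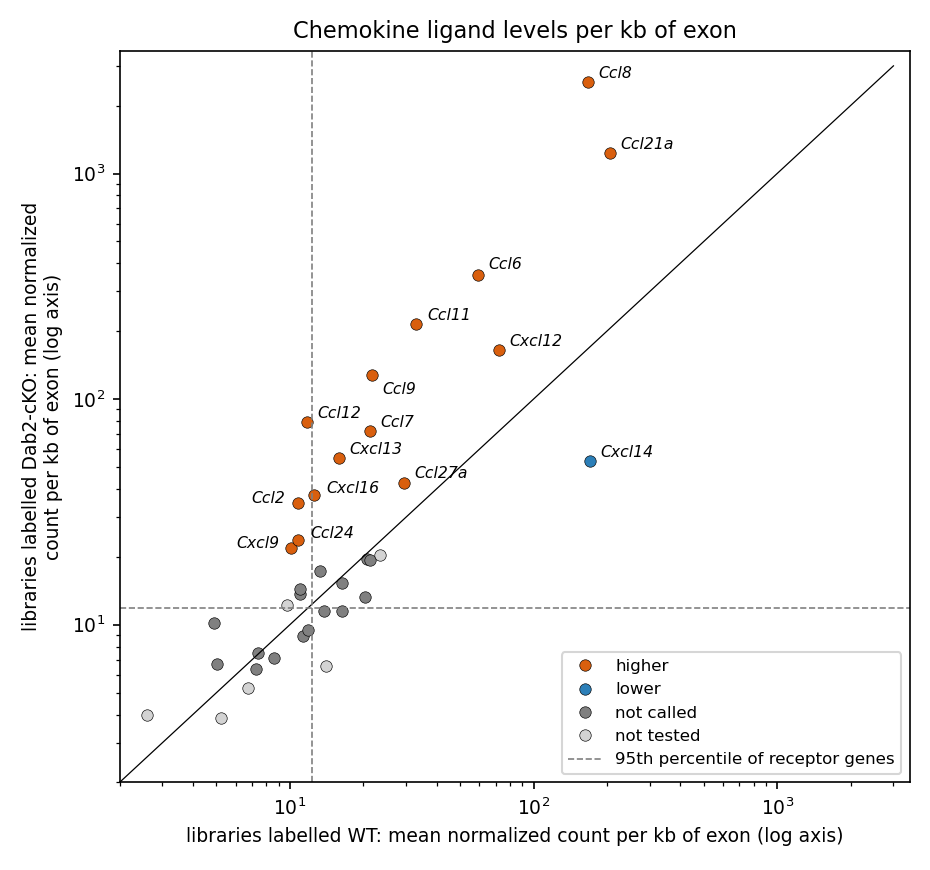
Mean normalized count per kb of exon of each chemokine ligand gene in the libraries labelled WT (x axis) and labelled Dab2-cKO (y axis), both on log axes, with the 95th percentile of the receptor genes dashed and the line of equal levels drawn. Genes without a count in either group are left out. Ccl8 and Ccl21a stand at 2549 and 1229.8 on the y axis, and Cxcl14, at 53.3 against 170.4 on the x axis, is the member called lower.

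Of the chemokine receptor genes reported here, 1 of 18 tested was higher, none was lower and 17 were not called. Among all genes tested, 16.8% were higher and 11.5% lower. Ccr2, the receptor of Ccl2, Ccl7 and Ccl12, had 77.9, 74.9 and 80.3 normalized counts in the WT-labelled libraries and 289, 331 and 297 in the Dab2-cKO-labelled ones (log2 fold change 1.97, SE 0.13, edgeR adjusted p = 7.20e-21). In the libraries labelled WT it was within the background level, with 11.5 normalized counts per kb. A further 6 chemokine receptor genes picked for description were not called, with log2 fold changes of -0.15 for Cxcr4, 0.03 for Cxcr2, 0.07 for Ccr10, -0.47 for Ccr6, 0.29 for Cxcr6 and -0.22 for Cx3cr1. Receptors of some ligands described above are not given by value. Ccr8 was too low to test.

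The atypical receptors bind chemokines without G protein signalling and take them up or carry them. Of these 5 genes, 3 were higher and none was lower, beside 16.8% and 11.5% of all genes. Only 1 of the 5 stood above the background level in the libraries labelled WT, while all 5 did in those labelled Dab2-cKO. Of the 23 receptor genes of both kinds, 4 were higher. With library size only, 3 were higher and 6 lower, beside 8.35% and 34.7% of all genes. Ackr3, which takes up Cxcl12, had 100.2, 100.2 and 92.3 normalized counts in the WT-labelled libraries and 267, 298 and 330.0 in the Dab2-cKO-labelled ones (log2 fold change 1.61, SE 0.13, edgeR adjusted p = 2.56e-17). Ackr4, which takes up Ccl19, Ccl21 and Ccl25, had 74.6, 107 and 112 against 198, 228 and 249 (log2 fold change 1.18, SE 0.15, edgeR adjusted p = 2.19e-10). Ackr1, which carries inflammatory chemokines across venular endothelium, had 26.7, 28.0 and 24.8 against 42.9, 58.7 and 54.1 (log2 fold change 0.96, SE 0.28, edgeR adjusted p = 0.00440). Ackr2, a scavenger of inflammatory CC ligands, had 57.9, 46.9 and 47.0 against 75.3, 64.4 and 78.4 and did not pass the test (log2 fold change 0.53, SE 0.22, edgeR adjusted p = 0.0625). The endothelial markers, 7 of 7 higher with log2 fold changes from 1.41 to 1.88, moved with the atypical receptors and with Cxcl12, and their part was not tested.

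**Figure D5:**
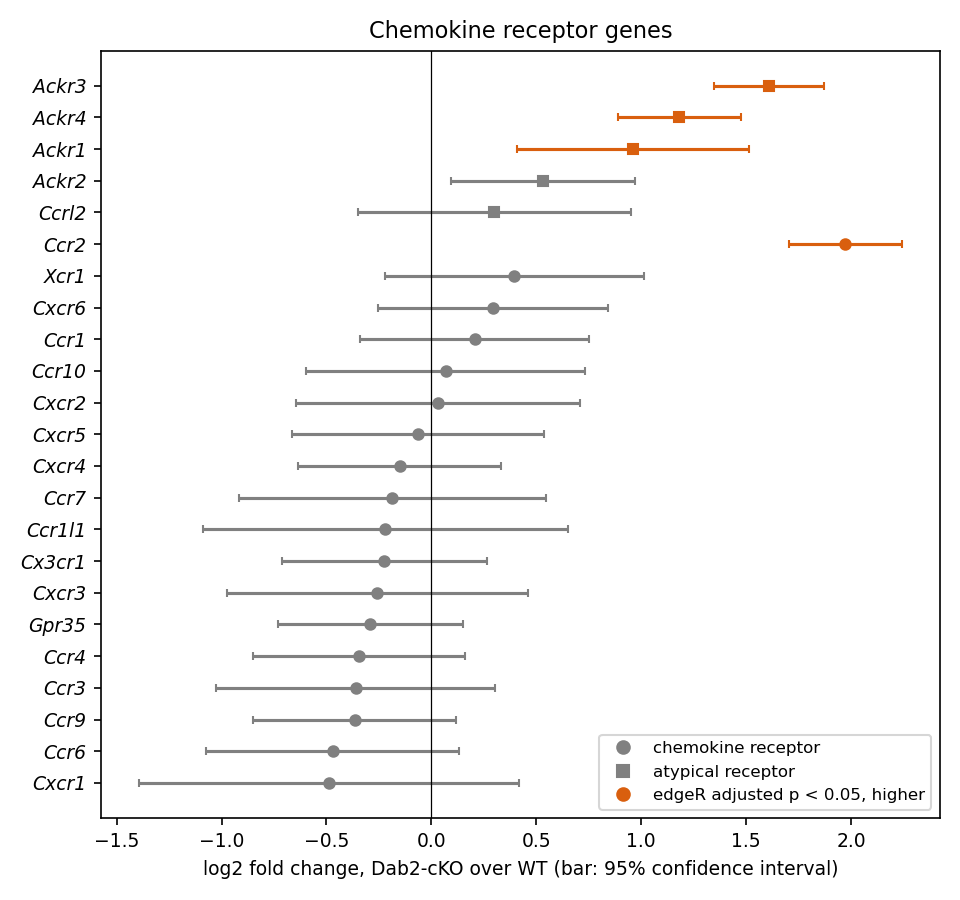
Log2 fold change of the libraries labelled Dab2-cKO over those labelled WT with 95% confidence intervals for 23 tested receptor genes, with circles for chemokine receptors and squares for atypical receptors. Orange marks genes called higher. Ccr2, Ackr3, Ackr4 and Ackr1 lie between 0.96 and 1.97, and the intervals of the other chemokine receptors include 0.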

How the data were processed

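The authors sequenced total RNA of sorted HFSCs from 5 ng input with a SMARTer Stranded pico kit, trimmed reads with fastp 0.23.4, aligned them to GRCm39 with HISAT2 2.2.1 and counted them per gene with featureCounts 2.0.6. The counts were deposited as such, with no normalization. A further deposited table holds the authors' own comparison by DESeq2 1.42.0 and was not used. Count columns named FL-FL were assigned to Dab2-cKO by the series title. The strand setting and annotation release were not given in the sources used here.

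In R 4.3.3, genes were filtered, TMM-normalized and tested with the quasi-likelihood test of edgeR 4.0.16 (robust), 3 against 3 libraries without covariates, and p-values were adjusted by Benjamini-Hochberg over all genes, with a threshold of 0.05. The fit was tested on simulated data. SEs were taken as the log2 fold change over the square root of the F statistic. Members with a call or a mean of at least 20 normalized counts were described per library. The members and gene lists were chosen with earlier results of these data known. Exon lengths and overlaps came from GENCODE vM39 and copies from BLAST+ 2.17.0 at 95% identity. The limit given for a count of 0 covers counting error only, and confidence intervals and p-values rest on the spread between these libraries. Replicates of a group differed beyond sampling noise (chi-square per gene 4.80 to 21.6). The alternatives were DESeq2 1.42.0, other scalings, other filters, a replicate block and each library left out. A receptor gene is not reported here.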

Additional observations from a re-analysis of the deposited data

How the results depend on the processing

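Across 13 alternatives, 13 of the 15 called members passed the threshold in the same direction under every alternative that gave a value, the exceptions being Ccl24 and Ccl27a as given above. Of 287 log2 values of members under alternatives, 270 kept direction and side of the threshold, 8 lost a call, 6 gained one and 3 changed sign. Relative to the TMM factors, upper-quartile scaling moved the median log2 fold change of all genes by -0.14 and library size only by -0.43. With upper-quartile scaling the members called lower numbered 2 (Cxcl14 and Ccl25) and all genes called higher 4281 and lower 5561, against 5387 and 3682. With library size only, members called lower numbered 5 (Ccl22, Ccl25, Cx3cl1 and Cxcl11 besides Cxcl14), and Cxcl10 turned to -0.10. Under the same scaling, receptors called, atypical ones included, were 3 higher against 4 and 6 lower against 0. All genes called were then 2686 higher against 5387 and 11168 lower. With a mean count of at least 50, 11 members were tested, of which 8 were higher and 2 lower (Cxcl14 and Ccl25). Of the 14801 genes then tested, 4461 were higher and 4062 lower. Fewer members were higher because Ccl2, Ccl7, Ccl12, Ccl24, Cxcl9 and Cxcl13 were then not tested. Leaving out each library in turn gave log2 fold changes from -0.23 to 0.034 for Ccl1 and from -0.18 to 0.025 for Cx3cl1, neither called. Correlations of deviations were 0.0231, 0.0117 and 0.00759 for libraries of equal replicate number and -0.0177 to 0.00546 for the others. These values do not settle whether the numbers pair the libraries. A replicate block left 14 members higher and 1 lower, the same 15 genes. The causes of the other shifts were not tested. Members below about 20 counts had SEs up to 0.54 and were limited by depth.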

Other observations

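Platelet factor 4 (Pf4), a CXC chemokine of platelets and some macrophages whose symbol lies outside the naming rule, had 26.7, 33.4 and 38.4 normalized counts in the WT-labelled libraries and 337, 341 and 304 in the Dab2-cKO-labelled ones. The groups did not overlap (log2 fold change 3.29, SE 0.16, edgeR adjusted p = 5.63e-29). Its neighbour in function Ppbp, also of platelets, had 13.4, 8.13 and 23.9 against 21.9, 8.05 and 22.1 and was not called (log2 fold change 0.20, SE 0.45).

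Among enzymes that act on chemokines, Dpp4, which trims their amino termini, fell from 581, 673 and 596 normalized counts to 386, 306 and 404 (log2 fold change -0.75, SE 0.09, edgeR adjusted p = 2.35e-10). Adam17, a protease that sheds Cx3cl1 and Cxcl16, rose from 450.0, 444 and 426 to 582, 565 and 597 (log2 fold change 0.40, SE 0.09, edgeR adjusted p = 9.10e-05). Adam10, which sheds the same ligands, had a log2 fold change of -0.13 and was not called. Of 18 genes of the NF-kappaB pathway and its cytokine targets, 11 were higher, 0 were lower and 7 were not called, with a median log2 fold change of 0.57. Over all genes tested the shares were 16.8% higher and 11.5% lower. The inhibitor genes Nfkbia, Nfkbie and Nfkbiz rose by 1.70, 1.49 and 1.12 on the log2 scale, while the cytokine genes Il1a, Il1b, Il6, Tnf, Csf2 and Csf3 were not called.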
